A study of Mus musculus with 4 samples.

Results

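The genes of the ATF4 response and of amino acid and folate metabolism were followed in cultured lung ILC2s (group 2 innate lymphoid cells, which secrete type 2 cytokines without an antigen receptor). They were taken from the deposited table by symbol, and all 31 of 31 named genes were found among its 17187. They comprise ATF4 with 10 genes of its stress response, 5 genes of serine and glycine synthesis, 3 folate enzymes, 3 genes of asparagine and proline synthesis and 9 amino acid transporters. Both groups were ILC2s sorted from lungs of BALB/c mice and cultured for 18 hours, 2 libraries with an antibody against the costimulatory receptor CD226 and 2 with an isotype control antibody. The protocol gives 5 µg/mL, and its wording does not make clear whether the isotype control was used at that dose. The design text speaks of treated mice and the table calls the controls PBS, and the sample labels were followed. No genotype, sex or age is given, and nothing in the labels tells if replicates were separate mice or cultures. Differences between replicates may therefore be technical, and p-values measure the spread between these libraries.

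ATF4 is a transcription factor whose protein is made when the initiation factor eIF2 is phosphorylated, as happens in amino acid shortage and in stress of the endoplasmic reticulum. It switches on genes that import amino acids, make serine, asparagine and proline, and turn serine into one-carbon units carried by folate, as well as stress factors such as CHOP and TRIB3. Since ATF4 is controlled largely at translation, the level of its mRNA does not measure its activity. Activated lymphocytes depend on this supply for protein and nucleotide synthesis. The comparison sets the levels of these transcripts under the CD226 antibody against those under the isotype antibody.

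ATF4 acts as a dimer with C/EBP-type partners on a composite element. The promoters that carry its core are shown because part of the list was chosen as targets of that factor. RefSeq's promoter windows (GRCm38.p6, 250 bases before to 50 after a gene's start) were at hand for 28 of the 31 genes, not for Slc7a5, Slc1a5 and Slc38a1. They were searched on both strands for TGATGNAA, which reads TTNCATCA on the other strand. It was found in 8 of the 28 genes (28.6%), in 242 of 9124 tested genes with a window (2.65%) and in 1219 of all 27025 genes with one (4.51%). Part of the genes were listed as ATF4 targets and others by their role in amino acid and folate metabolism. The share therefore describes how they were chosen and is no test, and a match is not a shown binding site. The windows follow RefSeq's starts, which can differ from the GENCODE gene bounds printed for single genes: the windows of Vldlr and Nupr1 lie inside those bounds, downstream of their outermost start. The sequence is that of the C57BL/6J reference and not of BALB/c. The 9 matches are in capitals below, each with 11 flanking bases on either side, on the strand of the gene.
Chac1, chr2:119351038-119351067, plus strand: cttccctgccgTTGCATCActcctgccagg
Trib3, chr2:152344028-152344057, minus strand: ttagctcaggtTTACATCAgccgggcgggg
Slc7a11, first match, chr3:50443661-50443690, minus strand: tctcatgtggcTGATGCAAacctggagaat
Slc7a11, other match, chr3:50443642-50443671, minus strand: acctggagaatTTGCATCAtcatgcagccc
Asns, chr6:7693214-7693243, minus strand: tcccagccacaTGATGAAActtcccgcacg
Nupr1, chr7:126625562-126625591, minus strand: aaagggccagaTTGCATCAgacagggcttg
Slc1a4, chr11:20332699-20332728, minus strand: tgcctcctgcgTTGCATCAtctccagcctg
Pycr1, chr11:120643833-120643862, minus strand: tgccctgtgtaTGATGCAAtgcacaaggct
Vldlr, chr19:27216809-27216838, plus strand: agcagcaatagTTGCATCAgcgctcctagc

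The whole windows of Slc7a11, which holds a match in each orientation 66 and 47 bases before RefSeq's gene start, and of Vldlr, the gene with the largest positive fold change of the list, are given with the matches in capitals.
Slc7a11, chr3:50443564-50443863, minus strand: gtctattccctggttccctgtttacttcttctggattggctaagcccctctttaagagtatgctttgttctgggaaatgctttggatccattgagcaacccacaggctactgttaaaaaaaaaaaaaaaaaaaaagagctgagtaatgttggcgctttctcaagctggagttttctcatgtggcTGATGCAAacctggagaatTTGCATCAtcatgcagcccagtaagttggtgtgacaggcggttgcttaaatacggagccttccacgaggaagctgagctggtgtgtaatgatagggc
Vldlr, chr19:27216770-27217069, plus strand: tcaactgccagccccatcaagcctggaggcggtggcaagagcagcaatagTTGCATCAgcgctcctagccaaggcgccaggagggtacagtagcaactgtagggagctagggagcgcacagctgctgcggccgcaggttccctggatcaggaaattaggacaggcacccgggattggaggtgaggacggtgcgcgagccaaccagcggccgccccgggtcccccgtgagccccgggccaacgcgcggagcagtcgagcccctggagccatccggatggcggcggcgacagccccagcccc

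The libraries held an estimated 12433700 to 17847249 reads. Values below are normalised read counts, and "per kilobase" divides them by the longest annotated transcript. Gata3 and Il1rl1, a transcription factor and the IL-33 receptor that define ILC2s, were at 13811 or more and at 8219.8 or more in every library. Of 15 macrophage and monocyte markers, 11 were in the table and 6 passed the filter, 5 of these higher on average and 1 lower. Summed over the 11, the level was 583 and 1888 in anti-CD226 replicates 1 and 2, against 307 and 296 in isotype replicates 1 and 2. Of the 6 that passed the filter, 4 had an unadjusted limma p below 0.05. The sum was carried largely by Mmp12 (168 and 678 in anti-CD226, against 34.3 and 2.32 in isotype libraries), Chil3 (16.5 and 784 in anti-CD226, against 19.9 and 0 in isotype libraries) and Ctss. Mpeg1 was at 4.12 and 16.5 in anti-CD226 libraries and at 0 in both isotype libraries, and Csf1r was at 2.62 or less in every library. Itgax, listed for dendritic cells, was at 14.4 and 46.3 in anti-CD226 libraries, against 1.11 and 0 in isotype libraries. On the same list Xcr1 (516 and 563 in anti-CD226, against 583 and 489 in isotype libraries) and Cd79b overlapped between groups. Of 10 mast cell and basophil markers, 9 were in the table and 6 passed the filter, 2 of these higher on average and 4 lower. Summed over the 9, the level was 1042 and 1549 in anti-CD226, against 1168 and 984 in isotype libraries. Most of this sum was Kit (913 and 1350 in anti-CD226, against 950 and 768 in isotype libraries). Cpa3 (37.1 and 63.9 in anti-CD226, against 84.0 and 100.4 in isotype libraries) and Mcpt8 (15.4 and 18.7 in anti-CD226, against 34.3 and 34.8 in isotype libraries) were lower in both anti-CD226 libraries. Gata2 was higher in both (26.8 and 20.9 in anti-CD226, against 8.84 and 10.0 in isotype libraries). Kit, the highest of the list, overlapped between groups. These markers other than Gata3, Il1rl1, Mmp12, Ctss, Itgax, Xcr1, Cpa3 and Kit were picked after their values were seen. The sum of 8 T cell markers was 3461 and 2416 in anti-CD226, against 3325 and 3896 in isotype libraries. It was carried by Trbc2, Trbc1 and Cd3g, each lowest in anti-CD226 replicate 2, while Cd3d was at 5.53 or less throughout. Whether these cells contributed to the values below was not tested, and in bulk RNA fewer cells of a type and less RNA per cell cannot be told apart.

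All 4 libraries carried much of this metabolic machinery. Per kilobase, 9 of the 31 genes were above the 90th percentile of genes tested. Slc3a2, the heavy chain CD98 that carries several transporters to the membrane, was highest with 4519 normalised reads per kilobase in anti-CD226 and 4379.7 in isotype libraries (means, n = 2 each). It was followed by Slc7a5 (LAT1), the light chain for large neutral amino acids, with 3702 per kilobase in anti-CD226 and 3439 in isotype libraries. Next came Shmt2, the mitochondrial enzyme that splits serine into glycine and a one-carbon unit, Phgdh and Psat1, the first enzymes of serine synthesis, the glutamine transporter Slc1a5, asparagine synthetase Asns, Atf4 itself and Mthfd2, which oxidises the one-carbon unit in mitochondria. These 9 genes spanned 1626 to 4449 per kilobase as means of the 4 libraries, and neighbours such as Shmt2 and Phgdh overlapped across libraries. The lowest were Slc7a11 at 15.0, Atf5 at 11.3 and Vldlr at 2.73 per kilobase.

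**Figure D1:**
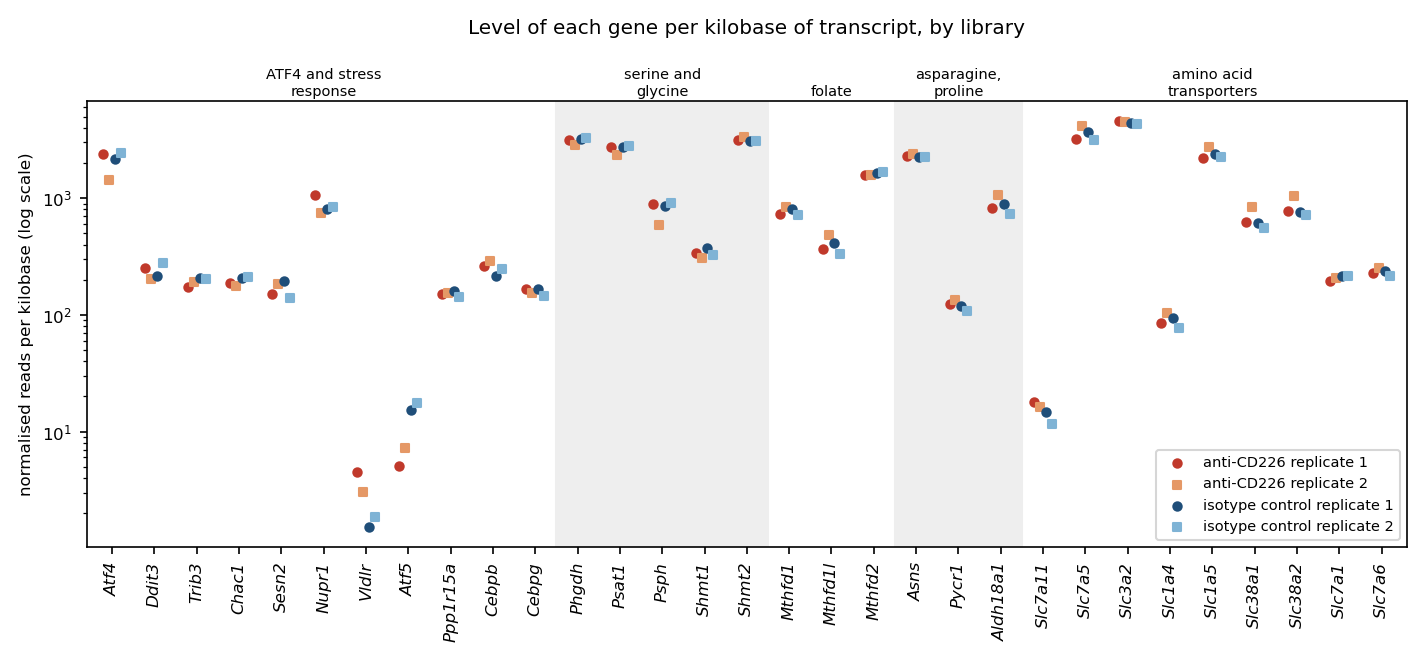
Normalised reads per kilobase of transcript (log axis) for the 31 genes, grouped by role, with 1 point per library. Slc3a2 and Slc7a5 lie highest, and Slc7a11, Atf5 and Vldlr lie far below the rest, with Atf5 lower and Vldlr higher in both anti-CD226 libraries.

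None of the 31 genes passed limma's test (linear models with a shared variance estimate, adjusted p over all 13010 genes tested, threshold 0.05), and 0% of all genes did. All 31 passed the filter on a mean of 10 or more, and their adjusted p lay between 0.982 and 0.996. Without adjustment, limma's p was below 0.05 for Atf5, which was lower, and Vldlr, which was higher, where 2.37% of all genes tested reach that level (1.55% higher, 0.815% lower). On average 20 genes were higher and 11 lower. Their median difference was 0.05 on the log2 scale, beside 51.1% of all genes higher and a median of 0.01. The log2 fold change was under 0.2 in size for 22 genes and between 0.2 and 0.4 for 7, and over 1 for Atf5 and Vldlr. The 95% interval of the fold change held 0 for 29 genes, and for the same number it lay within -1 and 1, so that for these a change beyond 2-fold lies outside it. The anti-CD226 and isotype values did not overlap in 16 of the 31 genes (51.6%), 9 higher and 7 lower, beside 26.8% of all genes tested (13.8% higher, 13% lower). This difference in shares was not tested. In 22 genes the 2 libraries of a group differed more from each other than the group means did, in at least 1 group.

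**Figure D2:**
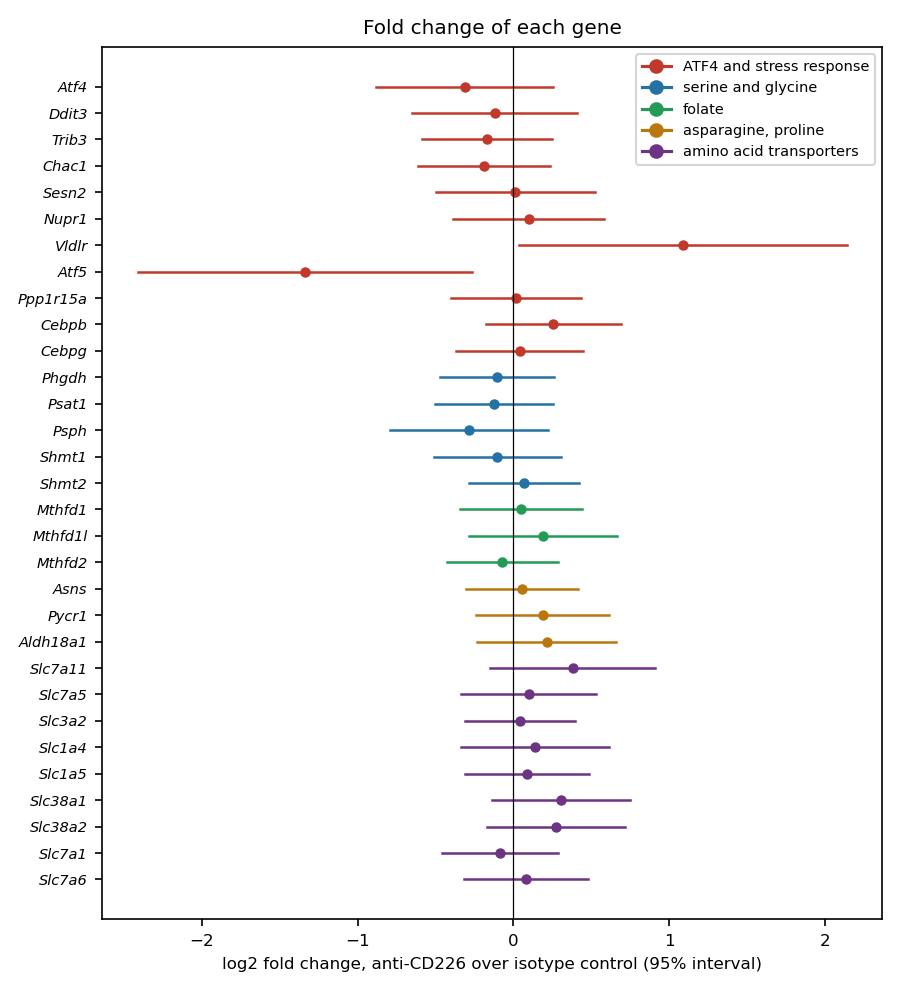
Log2 fold change of anti-CD226 over isotype control for each gene, with its 95% interval from limma. All intervals but those of Vldlr, above 0, and Atf5, below 0, hold 0, and no gene passed the adjustment over all genes.

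Among ATF4 and its stress response, the values differed most for a pair of rarely read genes and went opposite ways. Atf5, a leucine zipper factor related to ATF4 that acts in the mitochondrial stress response, lies on chromosome 7 from 44812256 to 44816658 (GRCm38, minus strand). It had 9.27 and 13.2 normalised reads in anti-CD226 replicates 1 and 2, against 27.6 and 31.7 in isotype replicates 1 and 2. Both anti-CD226 libraries lay below both isotype libraries. The difference was -1.34 ± 0.46 on the log2 scale (SE, limma, unadjusted p = 0.021, adjusted p = 0.98). Without isotype replicate 1 or 2 the unadjusted limma p was 0.073 and 0.128. These values rest on an estimated 9 and 12 reads in anti-CD226 and 25 and 41 reads in isotype libraries. Of the 1993 exonic bases of Atf5, 82 are shared with Nup62 on the other strand, a gene at 3006 to 3079 in every library. The treatment of strand is not given in the sources used here, so reads there cannot be assigned.

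Vldlr, the receptor for very low density lipoprotein and a known ATF4 target, lies on chromosome 19 from 27216484 to 27254231 (plus strand). It had 36.0 and 24.2 in anti-CD226 libraries, against 12.2 and 14.7 in isotype libraries. Both anti-CD226 values were above both isotype values, on an estimated 35 and 22 reads in anti-CD226 and 11 and 19 reads in isotype libraries. The difference was 1.09 ± 0.45 on the log2 scale (SE, limma, unadjusted p = 0.044, adjusted p = 0.98). The unadjusted limma p was above 0.05 with the length trend removed (0.104), with a replicate block (0.057), and without any 1 library other than anti-CD226 replicate 2 (0.083 to 0.182). The summed macrophage markers were also higher in both anti-CD226 libraries (583 and 1888 in anti-CD226, against 307 and 296 in isotype libraries), and their part in the value of Vldlr was not tested.

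Atf4 itself, on chromosome 15 from 80255184 to 80257541 (plus strand), had 4123 and 2469.9 in anti-CD226 libraries, against 3757 and 4172 in isotype libraries. Anti-CD226 replicate 2 lay below the other 3 libraries, while replicate 1 lay between the isotype values. The difference was -0.31 ± 0.25 on the log2 scale (SE), and without anti-CD226 replicate 2 it was 0.06. Without anti-CD226 replicate 1 it was -0.68. Replicate 2 then stands alone and is assumed to vary like the isotype libraries, so genes passing in that fit are not counted. Ddit3, which encodes the pro-apoptotic factor CHOP, had 225 and 179.7 in anti-CD226 libraries, against 193 and 247 in isotype libraries, so the groups overlapped.

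Trib3, a pseudokinase that feeds back on ATF4, had 353 and 391 in anti-CD226 libraries, against 421 and 415 in isotype libraries. Chac1, which degrades glutathione, had 309.9 and 287 in anti-CD226 libraries, against 337 and 343 in isotype libraries. Both genes carry the motif in their promoter and were lower in both anti-CD226 libraries, at log2 fold changes of -0.17 and -0.19 (SE 0.18 for each). Isotype replicates differed little in these genes, with SDs of 4.33 and 4.25, while the SDs in anti-CD226 libraries were 26.95 and 16.5. Cebpb, a partner of ATF4, went the other way, with 395 and 439 in anti-CD226 libraries against 325 and 373 in isotype libraries (log2 fold change 0.26 ± 0.19 SE). Of the 1504 exonic bases of Cebpb, 312 are shared with Tmem189 on the other strand. Tmem189 was also higher in both anti-CD226 libraries, with 1802 and 1855 against 1631 and 1708 in isotype libraries. Reads in the shared bases cannot be assigned, and their part in the value of Cebpb was not tested. The values of Cebpb were not whole multiples of 1 read in any library.

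The other stress genes overlapped between groups. Sesn2, an inhibitor of mTORC1, had 522 and 637 in anti-CD226 libraries, against 673 and 484 in isotype libraries. Its log2 fold change of 0.01 turned below 0 with equal upper quartiles and with quantile normalization. Nupr1, a small stress-induced chromatin protein, had 874 and 617 in anti-CD226 libraries, against 672 and 701 in isotype libraries. Ppp1r15a (GADD34), which directs the removal of the phosphate from eIF2, had 426 and 429.8 in anti-CD226 libraries, against 448 and 399 in isotype libraries, with a log2 fold change of 0.02 that was below 0 with equal upper quartiles. Cebpg, the partner of ATF4 with a short protein lacking an activation domain, had 788 and 729 in anti-CD226 libraries, against 788 and 687 in isotype libraries. None of these 4 genes is separated by group in the values.

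The 3 genes of serine synthesis were lower on average, with the lowest values in 1 library, and none passed the test. Phgdh, which takes 3-phosphoglycerate out of glycolysis, had 6022 and 5431 in anti-CD226 libraries, against 6076 and 6230.3 in isotype libraries. Psat1, the aminotransferase of the next step, had 7174 and 6146 in anti-CD226 libraries, against 7181 and 7295 in isotype libraries. Psph, the phosphatase of the last step, had 1536 and 1024 in anti-CD226 libraries, against 1474 and 1587 in isotype libraries. In all 3 genes anti-CD226 replicate 2 was the lowest library. Their log2 fold changes were -0.11, -0.12 and -0.29 (SE 0.16, 0.16 and 0.22). That of Psph was -0.58 without anti-CD226 replicate 1 and 0.01 without replicate 2. Of the 4329 exonic bases of Psph, 452 are shared with Cct6a on the other strand, a gene at 6159.9 to 6873 in the 4 libraries.

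The enzymes that turn serine into glycine showed more of the mitochondrial than of the cytosolic form. Shmt2, the mitochondrial one, had 7238 and 7612 in anti-CD226 libraries, against 7061 and 7093 in isotype libraries. Shmt1, the cytosolic one, had 976 and 879 in anti-CD226 libraries, against 1072 and 924 in isotype libraries. Per kilobase the ratio of Shmt2 to Shmt1 was 9.26 and 10.8 in anti-CD226 libraries, against 8.22 and 9.58 in isotype libraries, and these ranges overlap. Shmt2 was higher in both anti-CD226 libraries by a log2 fold change of 0.07 (standard error 0.15), and Shmt1 overlapped between groups (-0.10 ± 0.18 SE).

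Of the 3 folate enzymes, Mthfd2 was the highest per kilobase and Mthfd1l the lowest. Mthfd2, the mitochondrial dehydrogenase and cyclohydrolase, had 3320.4 and 3297 in anti-CD226 libraries, against 3456 and 3492 in isotype libraries. Replicates agreed closely here, with SDs of 16.9 in anti-CD226 and 26.03 in isotype libraries, and the groups did not overlap, at a log2 fold change of -0.07 (standard error 0.15, since limma draws each gene's variance towards that of genes of like level). Mthfd1, the cytosolic enzyme with 3 activities, had 2379 and 2708 in anti-CD226 libraries, against 2601 and 2314 in isotype libraries. Mthfd1l, which releases formate from mitochondria, had 1363 and 1792 in anti-CD226 libraries, against 1533 and 1225 in isotype libraries. Both overlapped between groups, at log2 fold changes of 0.05 and 0.19. The ratio of Mthfd2 to Mthfd1 per kilobase was 2.17 and 1.89 in anti-CD226 libraries, against 2.06 and 2.35 in isotype libraries. Mthfd1l, also mitochondrial, was below cytosolic Mthfd1, at means of 428 and 785 per kilobase in anti-CD226 libraries and of 374 and 758 in isotype libraries.

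**Figure D3:**
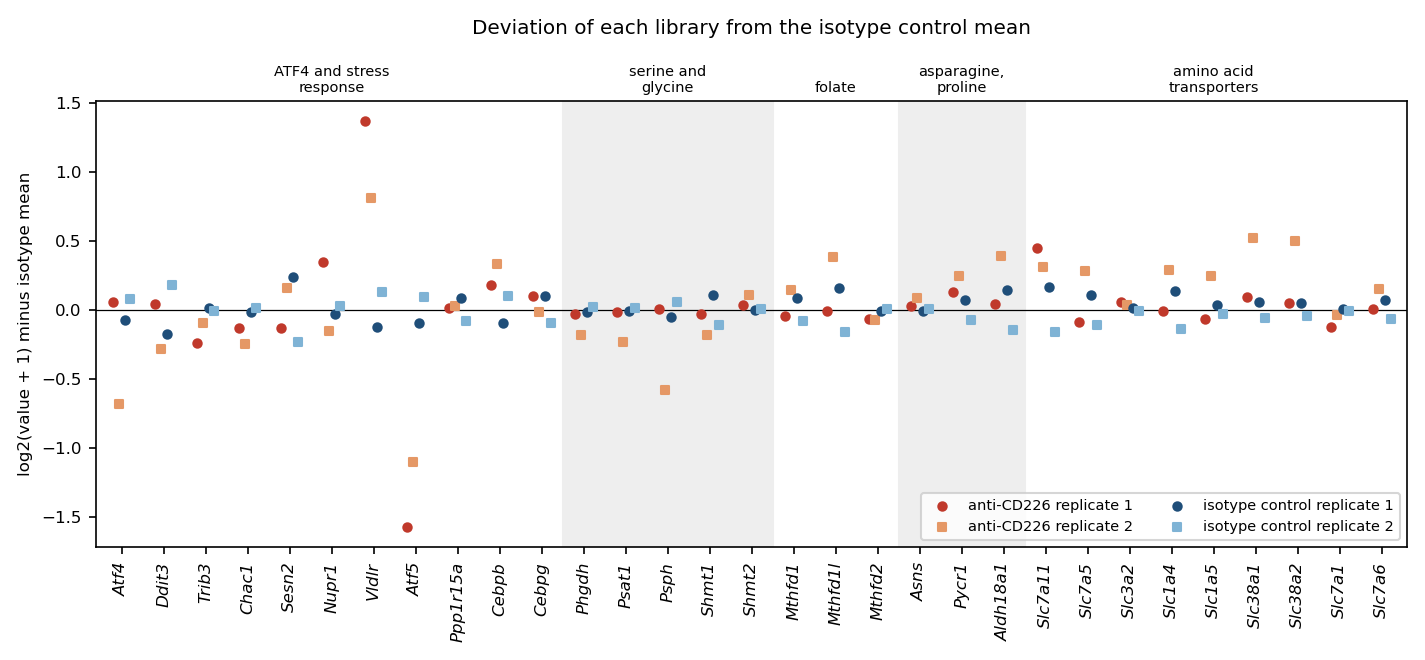
Deviation of each library from the isotype mean, in log2(value + 1), for the 31 genes by role, with 1 point per library. In anti-CD226 replicate 2 Atf4 and Psph are low and Slc38a1 and Slc38a2 high, while replicate 1 lies near the isotype libraries. Atf5 and Vldlr lie apart from the isotype libraries in both anti-CD226 replicates.

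Asns, which makes asparagine and whose promoter is a model of the element shown above, had 4616 and 4819.9 in anti-CD226 libraries, against 4517 and 4558 in isotype libraries. The groups did not overlap, at 0.06 ± 0.15 on the log2 scale (SE). Aldh18a1, the first enzyme of proline synthesis from glutamate, had 2919 and 3722 in anti-CD226 libraries, against 3145 and 2567 in isotype libraries. Pycr1, the last enzyme, had 361 and 390.2 in anti-CD226 libraries, against 347 and 313 in isotype libraries. Pycr1 was higher in both anti-CD226 libraries (log2 fold change 0.19 ± 0.18 SE) and Aldh18a1 overlapped (0.21 ± 0.19 SE). Per kilobase, Aldh18a1 was 6.67 and 7.88 times Pycr1 in anti-CD226 libraries, against 7.49 and 6.78 times in isotype libraries.

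Of the 9 amino acid transporters, 8 were higher on average and 1 lower, and none passed the test. Their median difference was 0.10 on the log2 scale. The groups did not overlap in 5 of them, 4 higher and 1 lower, beside 26.8% of all genes tested (13.8% higher, 13% lower). Against the isotype mean, the median over the 9 genes was 0.01 in anti-CD226 replicate 1 and 0.28 in replicate 2, so the shift was found in replicate 2. Of the 8 higher genes, Slc7a5, Slc1a4 and Slc1a5 were below the isotype mean without anti-CD226 replicate 2, at log2 fold changes of -0.09, -0.01 and -0.06. After removing the dependence on transcript length, none of the 9 changed sign, but all 8 positive values were smaller, those of Slc3a2 and Slc1a5 by little. Slc38a1 was then at 0.13, Slc38a2 at 0.17, Slc7a11 at 0.18, Slc7a5 at 0.05, Slc1a4 at 0.07 and Slc7a6 at 0.01 on the log2 scale, and Slc7a1 was further below 0, at -0.26.

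The neutral amino acid transporters Slc38a1 (SNAT1) and Slc38a2 (SNAT2), which take up glutamine and alanine with sodium, are neighbours on chromosome 15. They lie from 96571418 to 96642913 and from 96687392 to 96699730 (both minus strand). Slc38a1 had 4514 and 6096 in anti-CD226 libraries, against 4420.2 and 4072 in isotype libraries. Slc38a2 had 3587 and 4880.2 in anti-CD226 libraries, against 3576 and 3346 in isotype libraries. Both were above both isotype libraries, by little in anti-CD226 replicate 1 and by more in replicate 2, at log2 fold changes of 0.31 and 0.27 (standard error 0.19 each). Without anti-CD226 replicate 1 they were 0.52 and 0.50, and without anti-CD226 replicate 2 they were 0.09 and 0.05. Their ratio per kilobase, Slc38a2 to Slc38a1, was 1.24 and 1.25 in anti-CD226 libraries, against 1.26 and 1.28 in isotype libraries.

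Slc7a11 (xCT), the light chain that exchanges glutamate for cystine, had 164 and 149 in anti-CD226 libraries, against 134 and 107 in isotype libraries. It was higher in both anti-CD226 libraries, with the largest positive fold change among the transporters (log2 0.38 ± 0.23 SE, limma adjusted p = 0.98). Its values were not whole multiples of 1 read in any library. The common heavy chain Slc3a2 had 12782 and 12640.1 in anti-CD226 libraries, against 12414 and 12226 in isotype libraries (log2 fold change 0.05 ± 0.15 SE). Its partner Slc7a5 had 11346 and 14696 in anti-CD226 libraries, against 13008 and 11185 in isotype libraries, and the groups overlapped. The ratio of Slc7a5 to Slc3a2 per kilobase was 0.710 and 0.930 in anti-CD226 libraries, against 0.838 and 0.732 in isotype libraries.

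The glutamine transporter Slc1a5 (ASCT2) had 6142 and 7602 in anti-CD226 libraries, against 6566 and 6283 in isotype libraries. Slc1a4 (ASCT1), which prefers serine and alanine, had 334 and 411 in anti-CD226 libraries, against 370.2 and 305 in isotype libraries. Both overlapped between groups. Slc7a1 (CAT1), the carrier of arginine and lysine, was the transporter that was lower, with 1412 and 1500.02 in anti-CD226 libraries against 1549 and 1534 in isotype libraries (log2 fold change -0.08 ± 0.16 SE). Slc7a6 (y+LAT2), which exchanges cationic for neutral amino acids, had 850.4 and 941 in anti-CD226 libraries, against 888 and 807 in isotype libraries, and overlapped.

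The differences among the 31 genes varied with transcript length. In the 10 genes with the shortest transcripts (829 to 2026 bases), 3 were higher and 7 lower (median -0.14 on the log2 scale). In the 11 of middle length, 8 were higher and 3 lower (median 0.05), and in the 10 longest (3527 to 9223 bases), 9 were higher and 1 lower (median 0.20). Spearman's rho between fold change and length was 0.60 over the 31 genes and 0.44 over 12737 tested genes with a length. The points share the same 4 libraries and are no independent replicates. Against the isotype mean, the median of the shortest 10 was 0.02 in anti-CD226 replicate 1 and -0.21 in replicate 2, and that of the longest 10 was 0.05 and 0.35. Within groups, rho between length and the difference of replicate 2 minus replicate 1 was 0.36 in anti-CD226 and -0.67 in isotype libraries, beside 0.52 and -0.38 over all genes with a length. What part length had in the fold changes of single genes was not tested. With the trend removed, Atf5 was at -1.27 and Vldlr at 0.90, while Ddit3, Sesn2 and Cebpg changed sign.

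**Figure D4:**
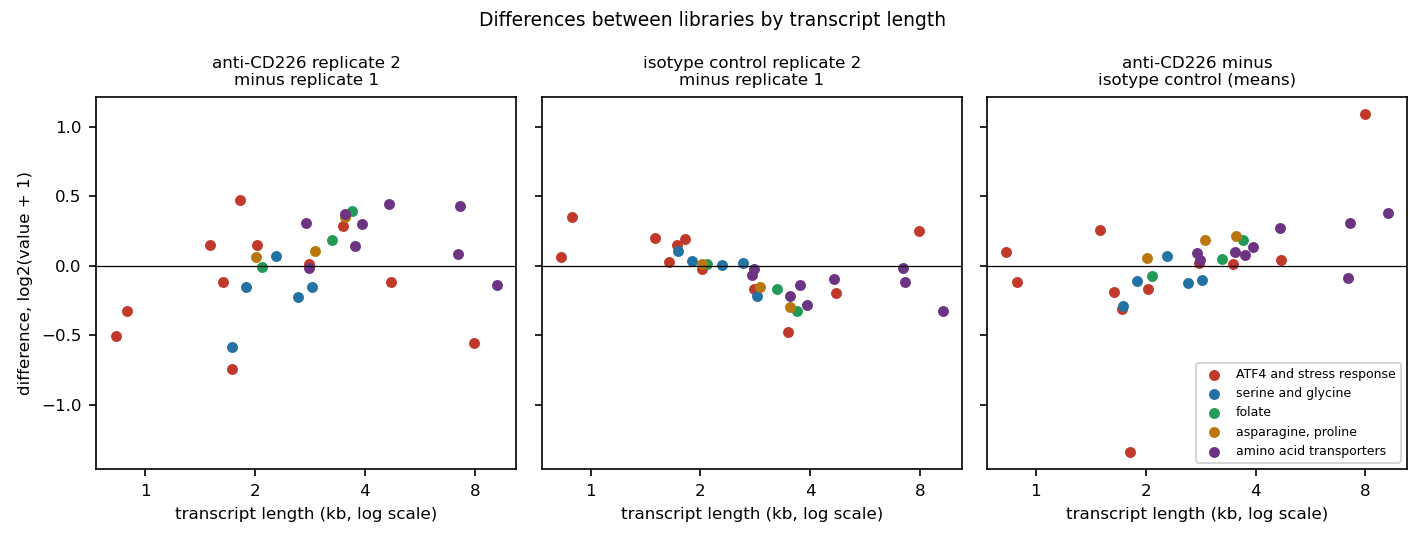
Log2 differences of the 31 genes against transcript length (log axis, kilobases), coloured by role. The panels show anti-CD226 replicate 2 minus replicate 1, isotype replicate 2 minus replicate 1, and the difference of the group means, for which short transcripts lie mostly below 0 and long ones above it.

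None of the genes of neighbouring pathways passed the test either. Across 9 lists of neighbouring pathways 158 genes were tested, and 0 passed limma's adjusted p or an unadjusted p below 0.05. Of these, 94 were higher and 64 lower (median 0.03 on the log2 scale). Groups did not overlap in 48 (30.4%), near the 26.8% of all genes. Among the 16 eIF2 kinases and subunits of eIF2 and its exchange factor, 9 were higher and 7 lower (median 0.02). Eif2ak4, the kinase GCN2 that senses uncharged tRNA, had 308 and 358 in anti-CD226 libraries, against 320.5 and 223 in isotype libraries. Its activator Gcn1 had 1939 and 3407 in anti-CD226 libraries, against 2536 and 1509 in isotype libraries, and both overlapped. Impact, an inhibitor of GCN2, had 238.9 and 305 in anti-CD226 libraries, against 217 and 206 in isotype libraries, and stood apart (log2 fold change 0.35 ± 0.21 SE).

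Of 28 other ATF4 targets tested, 19 were higher and 9 lower (median 0.10). Ddit4, an inhibitor of mTORC1, had 658 and 342 in anti-CD226 libraries, against 713 and 819 in isotype libraries (log2 fold change -0.69 ± 0.30 SE). Cth, which makes cysteine from cystathionine, had 60.7 and 67.2 in anti-CD226 libraries, against 45.3 and 37.1 in isotype libraries (0.63 ± 0.30 SE). Ndrg1 had 254 and 274 in anti-CD226 libraries, against 232 and 201 in isotype libraries. These 3 genes, named for the smallest p of their list, did not overlap between groups. Of all 28, groups did not overlap in 8, beside 26.8% of all genes tested.

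Cytosolic aminoacyl-tRNA synthetases, which load tRNAs and include known ATF4 targets, had 14 of 20 genes higher and 6 lower, with a median of 0.01. Their range of log2 fold changes, -0.07 to 0.28, was narrow. Eprs, which charges glutamate and proline tRNAs, had 3978 and 5215 in anti-CD226 libraries, against 3794 and 3725 in isotype libraries. Lars, for leucine, had 3201 and 3783 in anti-CD226 libraries, against 3159 and 2699.6 in isotype libraries. Iars, for isoleucine, had 3701 and 5812 in anti-CD226 libraries, against 4205 and 3587 in isotype libraries.

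Other folate, glycine cleavage and thymidylate genes had 7 higher and 11 lower of 18 (median -0.08). Aldh1l2, the mitochondrial enzyme that burns formyl-folate, had 98.5 and 140.07 in anti-CD226 libraries, against 97.6 and 76.6 in isotype libraries. Gldc of the glycine cleavage system had 117 and 114 in anti-CD226 libraries, against 95.04 and 91.9 in isotype libraries. Methionine synthase Mtr overlapped, with 736 and 1079 in anti-CD226 libraries against 803 and 652 in isotype libraries. In the methionine cycle, 6 of 8 genes were higher, and Mat2b, the regulatory subunit of methionine adenosyltransferase, had 1449 and 1104 in anti-CD226 libraries against 1513 and 1517 in isotype libraries. Ahcyl1 had 1954 and 2589 in anti-CD226 libraries, against 2021 and 1889 in isotype libraries.

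Purine synthesis, which uses the formyl groups of folate, had 7 genes higher and 6 lower of 13 (median 0.01). Pfas had 471 and 325 in anti-CD226 libraries, against 491 and 515 in isotype libraries. Atic had 669 and 558 in anti-CD226 libraries, against 666 and 831 in isotype libraries. Adssl1 had 53.5 and 54.005 in anti-CD226 libraries, against 35.4 and 38.6 in isotype libraries. Of 17 other genes of proline, glutamine and aspartate, 9 were higher and 8 lower. Argininosuccinate synthase Ass1 had 512 and 386 in anti-CD226 libraries, against 559 and 575 in isotype libraries. The alanine aminotransferase Gpt had 36.0 and 49.6 in anti-CD226 libraries, against 49.7 and 59.5 in isotype libraries.

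The 18 other amino acid transporters tested had 17 genes higher and 1 lower (median 0.15 on the log2 scale). As in the 9 above, the median against the isotype mean lay near 0 in anti-CD226 replicate 1 (0.005) and at 0.31 in replicate 2. The median length of these 18 was 4006 bases, beside 2848 for all genes tested. Slc38a9, a lysosomal arginine sensor, had 184 and 223 in anti-CD226 libraries, against 158 and 139 in isotype libraries. Slc36a1, a lysosomal proton-coupled carrier, was the lower one, with 71.04 and 51.8 in anti-CD226 libraries against 79.6 and 79.6 in isotype libraries. Slc1a1 had 4.12 and 28.7 in anti-CD226 libraries, against 1.11 and 10.8 in isotype libraries.

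Of 27 genes of amino acid sensing by mTORC1, 13 were higher and 14 lower (median -0.02). Sesn1, a paralogue of Sesn2, had 521 and 536 in anti-CD226 libraries, against 413 and 397 in isotype libraries (log2 fold change 0.38 ± 0.17 SE). Wdr24, a subunit of GATOR2, had 388 and 360.4 in anti-CD226 libraries, against 489.5 and 469.8 in isotype libraries (-0.36 ± 0.18 SE). Both, named for the smallest p of their list, stood apart between groups with close replicates, and both had a limma adjusted p of 0.98. Of all 27, groups did not overlap in 6, beside 26.8% of all genes tested. Tsc2, an inhibitor upstream of mTORC1, overlapped with 811 and 1220.4 in anti-CD226 libraries against 896 and 639 in isotype libraries.

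The 8 genes with the promoter motif had 6 higher and 2 lower values on average (median log2 fold change 0.12). The 20 with a window and no match had 11 higher and 9 lower (median 0.02). In anti-CD226 replicates 1 and 2 the medians against the isotype mean were 0.08 and 0.17 for genes with the motif, and 0.01 in each for those without. The difference between these sets was not tested. Summed, the 31 genes took 0.626% and 0.676% of all signal in anti-CD226 replicates 1 and 2, against 0.648% and 0.619% in isotype replicates 1 and 2.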

How the data were processed

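The authors deposited 1 table of normalised signal values per gene and library, for which the submitters' processing notes name mm10, Partek 10.0, STAR 2.7.8 and DESeq2. Per the labels' protocols, cDNA was made from 10 pg of RNA with a low-input kit. The sources used here do not give the annotation or strand setting. Low values are partly whole multiples of a step per library (73.5% to 75.1% of 12771 to 13599 values between 0.5 and 1000 steps, tolerance 0.02), so no count model was run. Reads are estimated as value over step, and cover counting error in part only, since amplified reads are not independent molecules. Of 17187 gene columns, 247 were checked singly against the unit and the rest were taken to be alike.

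Genes with a mean of 10 or more (13010) were tested with limma 3.58.1 in R 4.3.3 on log2(value + 1) with a mean-variance trend, two-sided, with Benjamini-Hochberg adjustment over all. Fold changes are on that scale, which understates those of low genes. The fit has 2 residual and 5.81 prior degrees of freedom. An exact permutation test of 2 against 2 libraries cannot give a p below 0.333. Positions and lengths are from GENCODE M21 (GRCm38). The genes and lists were chosen with earlier results of these data known. All 31 genes are reported, with up to 3 genes of smallest p per neighbouring list. A gene that this rule names is not reported here. Alternatives covered the pseudocount, filter, scaling, variance trend, replicate block, transcript length and leaving out each library.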

Additional observations from a re-analysis of the deposited data

How the results depend on the processing

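No gene passed limma's adjusted p with a pseudocount of 10, no filter, a mean of 50 or more (where Atf5 and Vldlr were not tested), equal totals, equal upper quartiles, quantile normalization, no variance trend or the length trend removed. The labels do not tell if equal replicate numbers mark a pair of libraries. Replicate 1 deviations correlated at -0.24 between groups, which cannot settle it. A replicate block called 20 genes and the crossed pairing, added after seeing the data, 61, with 0 of the 31 genes in either. Leaving out each library in turn called 12 to 1633 genes, and 0 to 4 of the 31. Of the 31 genes, 27 kept their sign in all alternatives that keep every library. With equal upper quartiles Sesn2 was at -0.0116 and Ppp1r15a at -0.0068 (log2 fold change), and with quantile normalization Sesn2 was at -0.0054. With the length trend removed Ddit3 was at 0.0638, Sesn2 at -0.0357 and Cebpg at -0.0673. Leaving out 1 library changed the sign of 13 genes and not of 18. The ranges were -0.6805 to 0.0584 for Atf4, -0.2955 to 0.0574 for Ddit3, -0.2225 to 0.2509 for Sesn2, -0.1526 to 0.3488 for Nupr1, -0.0642 to 0.1023 for Ppp1r15a, -0.0567 to 0.1410 for Cebpg and -0.5783 to 0.0061 for Psph. They were -0.2111 to 0.0028 for Shmt1, -0.0443 to 0.1424 for Mthfd1, -0.0077 to 0.3867 for Mthfd1l, -0.0883 to 0.2849 for Slc7a5, -0.0109 to 0.2897 for Slc1a4 and -0.0644 to 0.2432 for Slc1a5. The cause was not tested. Precision rests on 2 libraries a group, and for Atf5 and Vldlr also on 9 to 41 estimated reads a library.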
